A study of Homo sapiens with 32 samples.

Results

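The 10 genes described here encode cargo and enzymes of the regulated secretory granule, with a vesicle membrane protein: the prohormone convertases PCSK1 and PCSK2, carboxypeptidase E (CPE), the granins CHGA, CHGB, SCG2, SCG3, SCG5 and VGF, and synaptophysin (SYP). They were chosen by symbol among the 28278 gene symbols of the count tables and, by Ensembl gene, among the 60199 genes of the knockdown table. PCSK1 was selected on its loss from STAG2 KO clones, and the other 9 were taken with it as genes of regulated secretion. The values of that comparison are therefore given as a description: no p is printed for them, and counts past the threshold of its fit stand beside the background only and support nothing. The 10 members, and the gene lists that follow, were chosen with earlier results of these data known. In every comparison their counts beside the share of all genes are thus a description too. RNA was measured in 3 Ewing sarcoma lines, tumour cells driven by an EWSR1 fusion. In experiments 1 to 3, A673 cells were sequenced as the unedited parental line, as a WT clone with an inducible Cas9 inserted at the AAVS1 locus, and as KO clones made from that WT clone, so that the WT clone and all KO clones carry Cas9 and the parental line does not. Experiment 1 held 2 WT clone libraries, 1 parental library and 2 STAG2 KO libraries, which the table numbers 5 and 24. Experiment 2 held 2 WT clone libraries, 1 parental library and 3 clones each of STAG2 KO, EZH2 KO and SUZ12 KO. Experiment 3 held 1 WT clone library, 1 parental library and 3 STAG1 KO libraries, which the table numbers 1, 5 and 7. In experiment 4, 3 mock-transfected control libraries of A673 were compared with 3 libraries of cells transfected with siRNA against STAG2 (siSTAG2). SK-N-MC cells with Cas9 were sequenced with and without STAG2 KO. A4573 cells with Cas9, which lack STAG2, were sequenced without and with restored STAG2 (STAG2 KI). Each arm of these isogenic pairs was 1 library. Each KO library came from another clone as labelled. The number 5 stands among the STAG2 KO libraries of both experiments, and the numbers of experiment 1 match no single label. Whether these 2 libraries are of 1 clone was thus not known. Nothing stated that the WT clone, parental or transfected libraries of an arm came from separate cultures, so that p-values measure the spread between these libraries only.

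In endocrine cells and neurons, peptide hormones are made as long precursors that are packed with granins into dense-core granules. PCSK1 and PCSK2 cut the precursors after pairs of basic residues, CPE trims these residues from the new ends, and SCG5 is a chaperone of PCSK2. CHGA and CHGB condense the cargo and are themselves cut into peptides, as are SCG2 and VGF, while SCG3 binds CHGA at the granule membrane. SYP spans the membrane of small synaptic-like vesicles, and together with CHGA it is a routine tissue marker of neuroendocrine tumours. STAG2 and STAG1 are alternative subunits of cohesin, the ring complex that holds chromatin loops, and EZH2 and SUZ12 are subunits of the Polycomb repressive complex PRC2, which methylates histone H3.

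Total counts were 15734628 to 20663679 over the 22 libraries of A673 clones and parental cells, 29322507 to 32261248 over the 4 libraries of the pairs, and 6852340 to 8184632 recovered reads over the 6 knockdown libraries. STAG2 itself was at 42.2 to 183 CPM (counts scaled to the library's total and by TMM) in the 5 STAG2 KO libraries and at 255 to 358 CPM in the 6 proficient ones, EZH2 fell from 180 ± 11.5 (SD, n = 3) to 42.9 ± 13.5 CPM in EZH2 KO clones, and SUZ12 from 62.3 ± 3.71 to 15.9 ± 4.62 CPM in SUZ12 KO clones. STAG1 was at 61.1, 15.0 and 33.0 CPM in the STAG1 KO libraries and at 57.4 and 69.1 CPM in their controls, so that the library numbered 1 was not apart from them. The A4573 library labelled WT, which lacks STAG2 by the study's description, still gave 34.1 CPM of STAG2, against 86.9 CPM in the STAG2 KI library. The SK-N-MC library labelled STAG2 KO gave 184 CPM of STAG2, against 293 CPM in its control, 1.59-fold lower. The study followed the proteins by immunoblot in A673 clones and in both pairs. The RNA levels given here do not measure protein. Of 10 Ewing sarcoma markers, 9 were above 1 CPM in each of the 22 A673 libraries, and CD99 was listed at 0. Of 6 endocrine markers, 5 (INSM1, NEUROD1, NEUROD4 and CHRNA3 among them) were under 1 CPM in all of these libraries. Clone 5 of STAG2 KO in experiment 2 stood apart from clones 2 and 3, with a mean chi-square per gene of 131 and 105, against 24.02 between clones 2 and 3. The 2 WT clone libraries of experiment 1 were the closest pair, at 1.31, against 8.82 for those of experiment 2. Nothing stated whether the 2 of experiment 1 are 1 sample sequenced again. They entered the fits as separate libraries, and fits with both added up are given in the last section. If they are 1 sample, the STAG2 KO and WT clone comparisons rest on fewer samples than libraries. In bulk RNA, fewer cells of a type and less RNA per cell cannot be told apart.

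Promoter sequences from RefSeq (GRCh38.p14, 250 bases before to 50 after the start site) were found for 8 of the 10 genes, all but CHGB and SCG2. Those of PCSK1, VGF, CHGA and PCSK2 are shown because the results turn on these members. Capitals mark TGACGT on either strand (its other strand reads ACGTCA), the core of the cyclic AMP response element, and the overlap of both readings gives the full palindrome TGACGTCA.
PCSK1, chr5:96433199-96433498, minus strand
PCSK1: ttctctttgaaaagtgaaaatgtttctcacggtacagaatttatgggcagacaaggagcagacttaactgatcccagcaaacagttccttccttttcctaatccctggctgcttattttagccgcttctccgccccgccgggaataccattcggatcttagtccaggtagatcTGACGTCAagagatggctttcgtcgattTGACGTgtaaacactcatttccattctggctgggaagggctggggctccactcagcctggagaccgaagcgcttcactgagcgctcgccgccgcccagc
VGF, chr7:101165520-101165819, minus strand
VGF: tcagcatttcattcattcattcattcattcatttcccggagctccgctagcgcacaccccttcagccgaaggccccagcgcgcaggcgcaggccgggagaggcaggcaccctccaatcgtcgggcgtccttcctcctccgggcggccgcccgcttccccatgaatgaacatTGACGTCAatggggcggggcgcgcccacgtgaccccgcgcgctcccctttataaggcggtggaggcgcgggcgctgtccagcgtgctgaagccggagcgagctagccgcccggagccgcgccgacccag
CHGA, chr14:92922900-92923199, plus strand
CHGA: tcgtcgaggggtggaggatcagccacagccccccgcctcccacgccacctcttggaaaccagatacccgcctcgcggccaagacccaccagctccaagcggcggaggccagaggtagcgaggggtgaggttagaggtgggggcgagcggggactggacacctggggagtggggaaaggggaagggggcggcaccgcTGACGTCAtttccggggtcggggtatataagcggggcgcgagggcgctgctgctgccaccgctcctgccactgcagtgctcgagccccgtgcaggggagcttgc
PCSK2, chr20:17226790-17227089, plus strand
PCSK2: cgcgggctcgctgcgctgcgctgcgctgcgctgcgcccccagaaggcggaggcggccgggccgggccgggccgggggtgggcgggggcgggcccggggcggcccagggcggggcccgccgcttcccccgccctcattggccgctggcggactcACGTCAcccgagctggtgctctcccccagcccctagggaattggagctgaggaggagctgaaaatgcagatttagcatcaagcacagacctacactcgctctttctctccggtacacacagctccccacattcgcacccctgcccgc

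The palindrome TGACGTCA was present in 3 of these 8 windows, beginning 77 bases before the start site in PCSK1, 79 in VGF and 54 in CHGA, and in 1.85% of all 35116 promoter windows. The shorter TGACGT was present in 5 of the 8, the 3 above with PCSK2 and CPE, and in 7.98% of all windows. In PCSK2 it began 97 bases before the start site and read on the opposite strand. GGAAGGAA, letters that the EWSR1 fusion binds as repeats, was present in PCSK1 and SCG3, 2 of the 8, both read on the opposite strand, and in 3.67% of all windows. A match is a description of these letters only.

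Per kilobase of the MANE transcript, mean CPM over the 6 STAG2-proficient libraries of experiments 1 and 2 ran from 63.1 for PCSK2, through 26.5 for CPE, 16.4 for SCG2, 8.65 for SYP, 7.82 for VGF and 2.42 for CHGA, to 0.334 for CHGB and 0.294 for PCSK1. SCG5 and SCG3 were at 0.0846 and 0.0203 CPM per kilobase. PCSK2 and CPE were thus the members with the most transcripts in A673, and PCSK1 was among the scarce ones. On the scale of CPM per kilobase, the ranges of the 6 libraries overlapped between CPE and SCG2, SYP and VGF, VGF and CHGA, CHGB and PCSK1, PCSK1 and SCG5, and SCG5 and SCG3, and not between the other neighbours in this order. SCG5 had at most 4 counts in any of the 22 A673 libraries and SCG3 at most 14, and changes of SCG5 were not detectable at this depth.

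**Figure D1:**
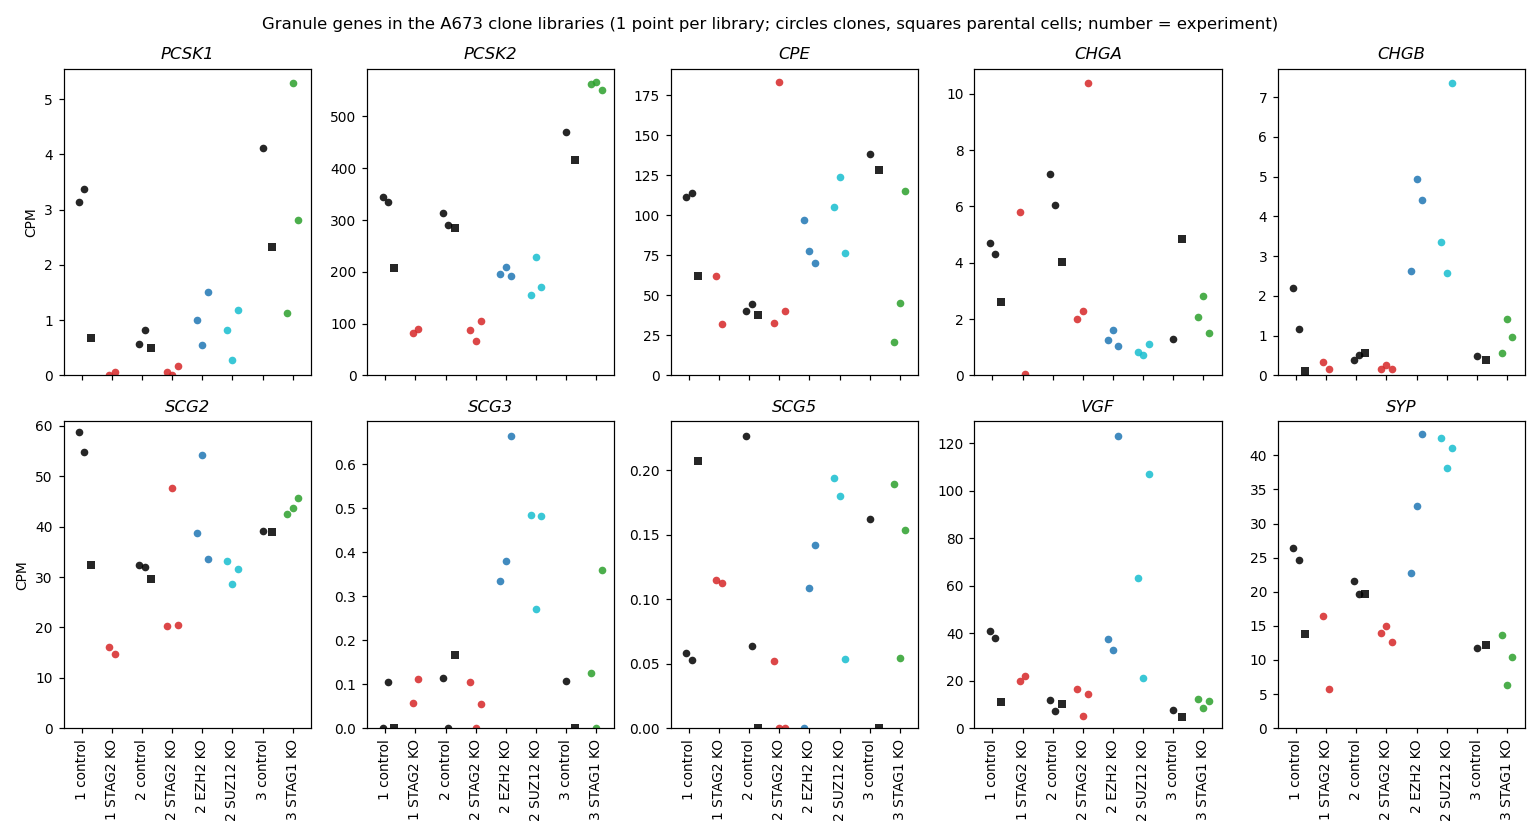
CPM (y axis, linear, from 0) of the 10 genes in the 22 A673 libraries by experiment and genotype (x axis); each point is 1 library, circles are clones and squares parental cells. PCSK1 and PCSK2 are lowest in the STAG2 KO libraries, CHGB, VGF and SYP reach their highest values in EZH2 KO and SUZ12 KO clones, and CHGA is low in these.

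Counts of members past the threshold (an adjusted p under 0.05, the adjustment taken over every gene in the fit) were read beside the share of all genes called in the same direction. In EZH2 KO clones, 3 of 8 tested members rose and 1 fell, where 12% of 15130 genes rose and 3.69% fell. In SUZ12 KO clones, 3 of 8 rose and 2 fell, where 14.7% rose and 5.87% fell. These 2 comparisons share their 3 controls. After STAG2 knockdown, 2 of 6 tested members rose and 2 fell, where 9.54% of 12060 genes rose and 11% fell. In STAG1 KO clones, edgeR called 0 of 8 members, where 2.77% of 14373 genes rose and 2.50% fell. At an unadjusted p under 0.05 there were 2 members, PCSK2 and VGF, beside 3578 of the 14373 genes, and DESeq2 called 1 member, PCSK2. Between the WT clone and the parental line, edgeR called 0 of 7 members, where 1.76% of 14167 genes were higher and 0.960% lower in the WT clone. DESeq2 also called 0, while 5 members had an unadjusted p under 0.05, all higher in the WT clone, beside 2320 of the 14167 genes in either direction. In the STAG2 KO comparison, 6 members passed the filter on low counts, 0 were past the threshold of the fit as higher and 1 as lower, given as a description, where 6.67% of 13574 genes rose and 5.76% fell. PCSK1 itself, with CHGB, SCG3 and SCG5, did not pass that filter. CHGB was tested in the PRC2 KO fits, where the filter keeps genes that are high enough in KO clones alone. Its place among the rises there is in part set by the filter. The median log2 fold change of the tested members was 0.78 in EZH2 KO, 0.70 in SUZ12 KO, 0.03 in siSTAG2, 0.06 in STAG1 KO and 0.32 between the WT clone and the parental line, beside 0.04, 0.01, 0.01, 0.00 and -0.01 over all genes.

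PCSK1 (ENSG00000175426, chromosome 5, 96390333 to 96434143, minus strand), which begins to cut prohormones in the trans-Golgi network and immature granules, was counted 54 and 64 times in the WT clone libraries of experiment 1, 13 times in the parental line, and 0 and 1 times in the STAG2 KO libraries numbered 5 and 24. In experiment 2 its counts were 10 and 13 in the WT clone, 9 in the parental line, and 1, 0 and 3 in STAG2 KO clones 3, 5 and 2. Every STAG2 KO library was thus below every proficient library, whose levels were 0.499, 0.751 and 3.37 CPM (lowest, median and highest). Set against the floor of 3 counts per library, PCSK1 was at least 9.21-fold lower in KO libraries, at least 14.02-fold lower in experiment 1 and at least 3.95-fold lower in experiment 2. These are the values that chose the gene. In the same libraries the summed level of 5 fibroblast markers was 703 to 1650 CPM in proficient and 101 to 279 CPM in KO libraries, and that of the 6 endocrine markers 0.0518 to 0.453 CPM and 0 to 0.0575 CPM, and their part in the levels of the granule genes was not tested. The proficient libraries also differed among themselves: the WT clone of experiment 1 was at 3.13 and 3.37 CPM and the parental line beside it at 0.674 CPM. Between the WT clone and the parental line over 3 experiments, PCSK1 was higher in the WT clone by 1.26 on the log2 scale (SE 0.34, edgeR adjusted p = 0.0990, higher in each experiment). Without the filter on low counts, which moves the adjustment, the adjusted p was 0.0250.

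In the other A673 arms PCSK1 was present. Its levels were 1.01, 0.543 and 1.52 CPM in EZH2 KO clones and 0.824, 0.270 and 1.18 CPM in SUZ12 KO clones, overlapping the 0.566, 0.8288 and 0.499 CPM of their controls. The log2 differences were 0.78 (SE 0.66, edgeR adjusted p = 0.453) and 0.33 (SE 0.67, adjusted p = 0.754). In experiment 3 it was at 4.11 CPM in the WT clone and 2.33 CPM in the parental line, and at 1.14, 5.29 and 2.82 CPM in the STAG1 KO libraries, which spread to either side of both controls (-0.06, SE 0.63, edgeR adjusted p = 0.969). In the knockdown experiment PCSK1 was near 0 in every library, with 0, 0 and 3 recovered reads in controls and 1, 1 and 3 after siSTAG2, so that a loss was not detectable at this depth. It did not pass the filter on low values and was not tested.

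SK-N-MC was the line with the most PCSK1. Its count fell from 1209 (36.7 CPM) in cells with STAG2 to 101 (3.31 CPM) in STAG2 KO cells, 11.1-fold lower, a log2 ratio of -3.45 (95% counting interval -3.78 to -3.18, which covers counting error only). In the pairs, folds are ratios of CPM, and log2 ratios carry a prior count of 2, which draws those of low counts towards 0. In A4573, PCSK1 was counted 0 times without STAG2 and 1 time with STAG2 KI. With 1 library an arm, neither pair has a replicate check.

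Over the 22 A673 libraries, the genes whose log2 CPM, relative to the controls of the same experiment, followed PCSK1 most closely were CHN2 (Pearson r = 0.94), BMPER (0.91), NTM (0.89), IL4R (0.885) and SERPINB9 (0.88), among the 11039 genes whose mean level reached 5 CPM. The STAG2 KO libraries, on which PCSK1 was chosen, are among the 22. Of the granule genes above that level, PCSK2 (0.72) and SCG2 (0.71) were closest to PCSK1 and ranked 210 and 218.

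PCSK2 (ENSG00000125851, chromosome 20, 17226107 to 17484578, plus strand), the convertase that acts in mature granules, was lower without STAG2 in the A673 clones, the knockdown and both pairs. Its exons overlap those of ENSG00000287241 on the opposite strand, and reads without strand cannot be told apart between them. In experiment 1, PCSK2 was at 345 and 334 CPM in the WT clone, 207 CPM in the parental line and 82.3 and 89.4 CPM in the STAG2 KO libraries. In experiment 2, it was at 314, 291 and 284 CPM in the controls and 88.5, 66.7 and 106 CPM in STAG2 KO clones 3, 5 and 2. The highest KO library was below the lowest proficient one, and the fitted level was 3.33-fold lower in KO (log2 -1.73, SE 0.16). In experiment 4, which shares no library with that comparison, the normalized value of PCSK2 was 2104, 2271 and 2129 in controls and 865, 895 and 948 after siSTAG2. The groups did not overlap, and the fall was 2.40-fold (log2 -1.26, SE 0.06, limma adjusted p = 2.64e-14). In SK-N-MC it fell 10.7-fold, from 5041 to 435 counts, with a log2 ratio of -3.42 (-3.57 to -3.28). In A4573 it was 3.80-fold lower without STAG2 than with STAG2 KI, 1023 against 4054 counts, a log2 ratio of -1.92 (-2.03 to -1.83).

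PCSK2 was also lower in the PRC2 KO clones, by less. EZH2 KO clones were at 196, 209 and 192 CPM and SUZ12 KO clones at 155, 229 and 171 CPM, all below the 3 controls. The change was -0.48 on the log2 scale in EZH2 KO (SE 0.17, edgeR adjusted p = 0.0829) and -0.61 in SUZ12 KO (SE 0.17, adjusted p = 0.0281). The SUZ12 KO call was lost without any of WT clone library 1, WT clone library 2, the parental library, or SUZ12 KO clone 1 or 3 (adjusted p = 0.0838, 0.0639, 0.0547, 0.110 and 0.0676), and the EZH2 KO difference passed the threshold when STAG2 KO and SUZ12 KO clones were kept out of the fit (0.0117) and with DESeq2 (0.0471). In STAG1 KO libraries PCSK2 was at 563, 567 and 551 CPM, above the 470 and 415 CPM of the controls, with a log2 difference of 0.34 (SE 0.09, edgeR adjusted p = 0.0923; 0.0132 with DESeq2).

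CPE, which trims basic residues after the convertases have cut, lies on chromosome 4 (ENSG00000109472, 165361194 to 165498547, plus strand) and varied widely among STAG2 KO and among STAG1 KO libraries. In experiment 1 it was at 111 and 114 CPM in the WT clone, 61.8 CPM in the parental line and 62.4 and 32.3 CPM in STAG2 KO libraries. In experiment 2 the controls were at 40.5, 44.6 and 37.8 CPM, and STAG2 KO clones 3 and 2 at 32.9 and 40.2 CPM, while clone 5 was at 183 CPM. The fitted log2 difference was 0.24 (SE 0.57), and -0.55 without clone 5. CPE was above all controls in EZH2 KO clones (96.7, 77.7 and 70.4 CPM) and SUZ12 KO clones (105, 124 and 76.6 CPM). Neither difference passed the threshold in the fit that included the spread of STAG2 KO clones (log2 1.08, SE 0.52, edgeR adjusted p = 0.186, and 1.38, SE 0.52, adjusted p = 0.0827), and both did with only the groups compared (0.00138 and 4.48e-04). DESeq2 called the SUZ12 KO difference (adjusted p = 0.0292). STAG1 KO libraries were at 21.1, 45.1 and 115 CPM, below the 138 and 128 CPM of controls (-1.14, SE 0.61, edgeR adjusted p = 0.303). After siSTAG2 the values were 227, 249 and 238, against 238, 242 and 266 in controls, and overlapped (-0.06, SE 0.09, limma adjusted p = 0.702). The pairs gave log2 ratios of -0.40 (-0.47 to -0.34) in SK-N-MC and -0.26 (-0.33 to -0.19) in A4573.

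CHGA, the acidic granin used as a tumour marker, lies on chromosome 14 (ENSG00000100604, 92923150 to 92935285, plus strand), and its direction differed between the clones, the knockdown and the PRC2 KOs. In experiment 1 it was at 4.70 and 4.32 CPM in the WT clone, 2.59 CPM in the parental line, and 5.81 and 0.0562 CPM in STAG2 KO libraries 5 and 24, the last of which had 1 count. In experiment 2 the controls were at 7.14, 6.06 and 4.04 CPM and STAG2 KO clones 3, 5 and 2 at 1.99, 2.30 and 10.4 CPM. STAG2 KO libraries thus lay on both sides of the proficient ones (fitted log2 difference -0.27, SE 0.72). After siSTAG2, CHGA rose 2.27-fold, from 132, 179 and 159 to 318, 375 and 371 (log2 1.18, SE 0.11, limma adjusted p = 5.60e-09). In SK-N-MC its counts were 478 with and 592 without STAG2, a log2 ratio of 0.42 (0.24 to 0.60), and in A4573 0 with STAG2 KI and 5 without STAG2.

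In PRC2 KO clones CHGA fell. EZH2 KO clones were at 1.25, 1.63 and 1.04 CPM and SUZ12 KO clones at 0.824, 0.721 and 1.13 CPM, all under the lowest control. The fall was 4.13-fold in EZH2 KO (log2 -2.04, SE 0.59, edgeR adjusted p = 0.0363) and 6.11-fold in SUZ12 KO (-2.61, SE 0.60, adjusted p = 0.0103). The EZH2 KO call was lost when any of its 6 libraries was left out (adjusted p = 0.0522 to 0.110). In STAG1 KO libraries CHGA was at 2.08, 2.84 and 1.49 CPM, between the WT clone at 1.30 CPM and the parental line at 4.85 CPM (-0.53, SE 0.58, edgeR adjusted p = 0.622).

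CHGB, the second chromogranin, lies on chromosome 20 (ENSG00000089199, 5911510 to 5925353, plus strand) and rose most of the members in PRC2 KO clones. Its counts were 7, 8 and 10 in the controls of experiment 2, 55, 91 and 93 in EZH2 KO clones and 69, 57 and 137 in SUZ12 KO clones. Mean levels were 0.487 ± 0.0813 (SD, n = 3), 3.99 ± 1.21 and 4.42 ± 2.57 CPM, and the rises were 8.62-fold (log2 3.11, SE 0.49, edgeR adjusted p = 0.00176) and 9.43-fold (3.24, SE 0.49, adjusted p = 9.90e-04). Both calls held without any single library of the 6 in each comparison. In STAG2 KO libraries CHGB was at 0.345 and 0.168 CPM in experiment 1 and 0.157, 0.261 and 0.166 CPM in experiment 2. The proficient libraries were at 0.104, 0.532 and 2.20 CPM (lowest, median and highest), and the lowest of them, the parental line of experiment 1 with 2 counts, was under all KO libraries. STAG1 KO libraries had 9, 26 and 19 counts and their controls 8 and 9 (1.17, SE 0.52, edgeR adjusted p = 0.229). The knockdown libraries held 0 or 1 reads of CHGB.

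In the pairs CHGB moved in opposite directions. SK-N-MC had 356 counts with and 120 without STAG2, a log2 ratio of -1.44 (-1.77 to -1.16). A4573 had 2 counts with STAG2 KI and 40 without STAG2 (log2 ratio 3.45 with the prior count of 2 used here, counting interval 2.44 to 7.48).

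SCG2 (ENSG00000171951, chromosome 2, 223596940 to 223602361, minus strand), the precursor of secretoneurin, was lower in most libraries without STAG2. In experiment 1 it was at 58.7 and 54.8 CPM in the WT clone, 32.4 CPM in the parental line, and 16.2 and 14.7 CPM in STAG2 KO libraries. In experiment 2 the controls were at 32.4, 32.0 and 29.7 CPM, STAG2 KO clones 3 and 2 at 20.3 and 20.5 CPM, and clone 5 at 47.6 CPM. Apart from clone 5, every KO library was below every proficient one (fitted log2 difference -0.70, SE 0.37, and -1.09 without clone 5). After siSTAG2 it fell from 112, 100.4 and 106 to 82.1, 66.8 and 73.4, a 1.43-fold fall with no overlap (log2 -0.52, SE 0.14, limma adjusted p = 0.0104). That call was lost without control library 1 (adjusted p = 0.0509) or siSTAG2 library 2 (0.0571). In SK-N-MC it fell 10.1-fold, from 630 to 58 counts (log2 ratio -3.29, -3.75 to -2.94), while A4573 had 113 counts with and 102 without STAG2, a log2 ratio of -0.09 (-0.49 to 0.31). SCG2 did not pass the threshold in EZH2 KO clones (38.7, 54.2 and 33.6 CPM; 0.52, SE 0.31, edgeR adjusted p = 0.280), SUZ12 KO clones (33.3, 28.5 and 31.6 CPM; 0.06, SE 0.31, adjusted p = 0.905) or STAG1 KO libraries (42.6, 43.7 and 45.7 CPM against 39.2 and 38.9 CPM; 0.17, SE 0.09, adjusted p = 0.307).

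VGF (ENSG00000128564, chromosome 7, 101162509 to 101165569, minus strand), a granin cut into several neuropeptides and induced by nerve growth factor, rose in PRC2 KO clones and after siSTAG2. In experiment 2 it was at 11.95, 7.40 and 10.0 CPM in controls, 37.6, 32.8 and 123 CPM in EZH2 KO clones and 63.1, 21.0 and 107 CPM in SUZ12 KO clones. The KO clones were all above the controls and spread widely among themselves. The rises were 6.97-fold (log2 2.80, SE 0.66, edgeR adjusted p = 0.0148) and 6.83-fold (2.77, SE 0.66, adjusted p = 0.0118). The EZH2 KO call was lost without WT clone library 1 or 2, the parental library or EZH2 KO clone 3 (adjusted p = 0.0533, 0.0730, 0.0559 and 0.0567), and the SUZ12 KO call without WT clone library 2 (0.0581). After siSTAG2, VGF rose 1.67-fold, from 105, 104 and 102 to 192, 180 and 153 (log2 0.74, SE 0.12, limma adjusted p = 5.91e-05). In siSTAG2 libraries 2 and 3 the deposited values of VGF equal those of STAG2, at 194 and 158 recovered reads for each gene. In STAG2 KO libraries it was at 19.8 and 22.0 CPM in experiment 1, below the 41.0 and 38.1 CPM of the WT clone and above the 11.2 CPM of the parental line. In experiment 2 STAG2 KO clones 3, 5 and 2 were at 16.7, 5.27 and 14.5 CPM, on both sides of the controls (fitted log2 difference -0.02, SE 0.39). STAG1 KO libraries were at 12.5, 8.51 and 11.3 CPM and their controls at 7.84 and 4.56 CPM (0.79, SE 0.31, edgeR adjusted p = 0.183). SK-N-MC had 34 counts with and 51 without STAG2 (log2 ratio 0.66, 0.04 to 1.37), and A4573 55 with and 18 without (-1.46, -2.41 to -0.76).

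SCG3 (ENSG00000104112, chromosome 15, 51681492 to 51721026, plus strand) and SCG5 (ENSG00000166922, chromosome 15, 32641676 to 32697098, plus strand) passed the filter in none of the comparisons of A673. SCG3 had 7, 7 and 14 counts in EZH2 KO clones, 10, 6 and 9 in SUZ12 KO clones, and 2, 0 and 3 in their controls. In the pairs SCG3 was higher without STAG2 in both lines: 51 against 20 counts in SK-N-MC, 2.75-fold by CPM (log2 ratio with the prior count 1.37, 0.69 to 2.28), and 100 against 6 in A4573, 17.4-fold by CPM (log2 ratio with the prior count 3.73, 2.95 to 5.60). SCG5, whose exons overlap those of ARHGAP11A-SCG5 and SCG5-AS1, had at most 2 counts in any library of the pairs.

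SYP (ENSG00000102003, chromosome X, 49187815 to 49200218, minus strand), whose exons overlap those of SYP-AS1, rose in PRC2 KO clones. Controls of experiment 2 were at 21.6, 19.6 and 19.7 CPM, EZH2 KO clones at 22.8, 32.6 and 43.1 CPM and SUZ12 KO clones at 42.5, 38.2 and 41.0 CPM. EZH2 KO clone 1 was close to the controls, and SUZ12 KO clones were well apart from them. The rise was 1.72-fold in EZH2 KO (log2 0.78, SE 0.20, edgeR adjusted p = 0.0229) and 2.10-fold in SUZ12 KO (1.07, SE 0.20, adjusted p = 0.00343). The EZH2 KO call was lost without WT clone library 1 or 2, the parental library, or EZH2 KO clone 2 or 3 (adjusted p = 0.0722, 0.0934, 0.0812, 0.0587 and 0.0853). In STAG2 KO libraries SYP was at 16.5 and 5.68 CPM in experiment 1, against 26.4 and 24.6 CPM in the WT clone and 13.8 CPM in the parental line. In experiment 2 it was at 13.9, 15.0 and 12.6 CPM in STAG2 KO clones 3, 5 and 2, all below the controls (fitted log2 difference -0.69, SE 0.27). SYP values overlapped between the arms of the knockdown (62.9, 65.0 and 85.4 against 76.6, 77.9 and 74.4; 0.11, SE 0.16, limma adjusted p = 0.678). They also overlapped between STAG1 KO libraries (13.7, 6.32 and 10.5 CPM) and controls (11.8 and 12.1 CPM; -0.24, SE 0.32, edgeR adjusted p = 0.691). SK-N-MC had 214 counts in each arm, a log2 ratio of 0.11 (-0.17 to 0.39), and A4573 187 with and 415 without STAG2 (1.20, 0.96 to 1.47).

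**Figure D2:**
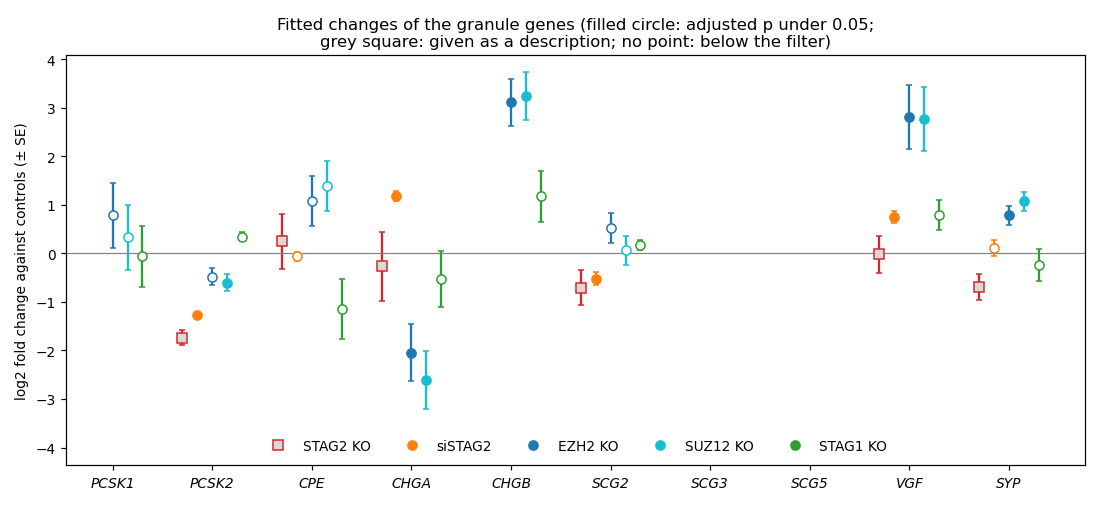
Log2 fold change against controls (y axis, bars ± SE) of the members (x axis) in 5 comparisons; filled circles passed an adjusted p under 0.05, open circles did not, grey squares are the STAG2 KO values, given as a description, and genes below the filter have no point. CHGB, VGF and SYP lie above 0 and CHGA below 0 in EZH2 KO and SUZ12 KO, and PCSK2 lies below 0 in STAG2 KO and siSTAG2.

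**Figure D3:**
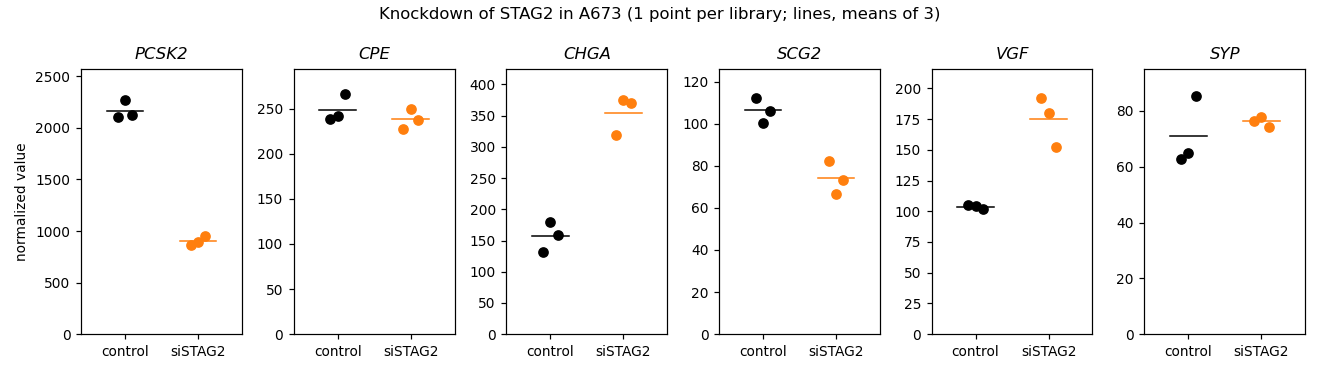
Normalized value (y axis, from 0) of the 6 members tested in the knockdown, in 3 control and 3 siSTAG2 libraries of A673; points are libraries and lines their means. PCSK2 and SCG2 are lower and CHGA and VGF higher after siSTAG2 with no overlap, and CPE and SYP overlap.

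EZH2 KO and SUZ12 KO clones were also compared with each other, without the shared controls. Over all genes, edgeR called 0 of 15130 higher (0%) and 1 lower (0.00661%) in EZH2 KO clones. The called gene was EZH2, and DESeq2 called 22 genes. SUZ12 itself, at 1.73 on the log2 scale (SE 0.23, edgeR adjusted p = 0.0663), did not pass the threshold. An absent call here thus does not show that the clones were alike. Of the 8 tested members, edgeR and DESeq2 called 0, and 0 had an unadjusted p under 0.05, beside 629 of the 15130 genes. The log2 differences (EZH2 KO minus SUZ12 KO) ran from -0.30 (SE 0.51) for CPE to 0.57 (SE 0.60) for CHGA, with -0.13 (SE 0.43) for CHGB, 0.03 (SE 0.61) for VGF and -0.29 (SE 0.20) for SYP. In the same clones the summed level of 8 sympathoadrenal markers was 80.5 to 103 CPM in SUZ12 KO, 54.3 to 64.4 CPM in EZH2 KO and 59.2 to 63.4 CPM in controls. In SUZ12 KO, GATA3 was at 30.1 CPM, HAND2 at 29.5 and ISL1 at 19.1 CPM on average. Against the controls, GATA3 passed the threshold as higher (log2 5.32, SE 0.91, edgeR adjusted p = 0.00192). HAND2 (-0.27, SE 0.20, adjusted p = 0.359) and ISL1 (-0.24, SE 0.21, adjusted p = 0.457) did not pass it. TH, DBH and DDC, which make catecholamines, were under 1 CPM in every A673 library. Of the 8, 5 (PHOX2A, ISL1, HAND2 and GATA3 among them) are also in the list of regulators counted for the same clones. The summed level of 6 endocrine markers was 0.705 to 2.15 CPM in EZH2 KO and 0.630 to 1.13 CPM in SUZ12 KO, against 0.128 to 0.453 CPM in controls. The summed level of 4 epithelial markers was 671 to 959 CPM in EZH2 KO and 424 to 1235 CPM in SUZ12 KO, against 361 to 417 CPM in controls, with CDH1 under 1 CPM in every library. The keratins made up nearly all of it. KRT8 averaged 394 CPM in EZH2 KO and 497 CPM in SUZ12 KO, against 27.8 CPM in proficient libraries of experiments 1 and 2. KRT18 averaged 455 and 360 CPM, against 269 CPM, and EPCAM 0.285 and 1.34 CPM, against 0.334 CPM. The part of these markers in the changes of the granule genes was not tested.

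**Figure D4:**
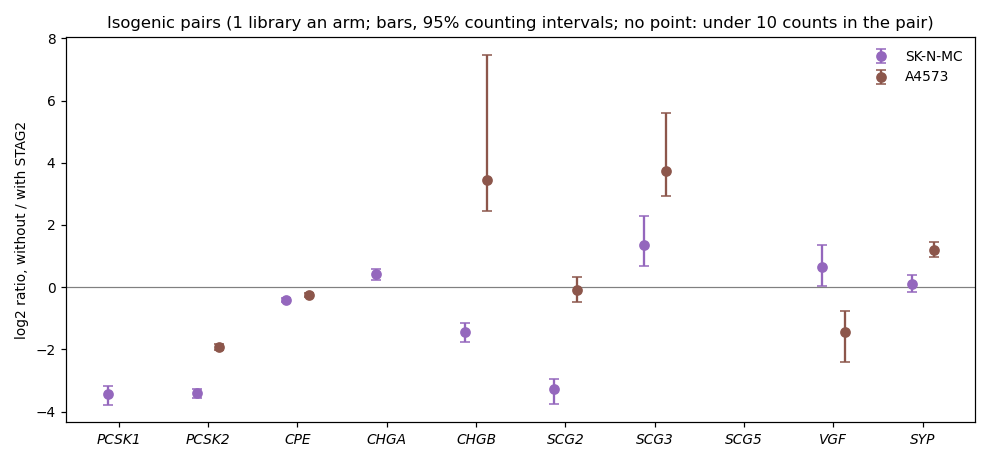
Log2 ratio of CPM without over with STAG2 (y axis) of the members (x axis) in the SK-N-MC and A4573 pairs; each point compares 2 libraries, and bars are 95% counting intervals. PCSK2 is below 0 and SCG3 above 0 in both lines, PCSK1 and SCG2 are far below 0 in SK-N-MC, and CHGB and VGF have opposite signs in the 2 lines.

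Past a 2-fold difference, 1 of the 9 members with at least 10 counts in the SK-N-MC pair was higher without STAG2 (SCG3) and 4 were lower (PCSK1, PCSK2, CHGB and SCG2), where 10.2% of 16413 genes were higher and 11.4% lower. In the A4573 pair 3 of 7 were higher (CHGB, SCG3 and SYP) and 2 lower (PCSK2 and VGF), where 7.76% of 16124 genes were higher and 14.1% lower. The median log2 ratio of the members was -0.40 in SK-N-MC and -0.09 in A4573, beside -0.01 and 0.00 over all genes.

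The peptide precursors that such granules carry were followed in a list of 36 genes. The filter on low counts keeps a gene that is high enough in a single arm. Genes with few or no counts in controls were thus tested only where high in KO clones. They could be counted only as rises. POMC, RAB27B, SYPL2 and SRRM4 were such genes in the PRC2 KO fits. Counts of rises there, and the shares of all genes, are in part set by the filter. Counts of this list and of those that follow stand beside the shares of all genes. These were 9.54% higher and 11% lower after siSTAG2, 12% and 3.69% in EZH2 KO, and 14.7% and 5.87% in SUZ12 KO. They were 6.67% and 5.76% in STAG2 KO, 2.77% and 2.50% in STAG1 KO, and 1.76% and 0.960% in the WT clone against the parental line. After siSTAG2, 0 of the 8 tested rose and 6 fell, with a median log2 change of -1.29. The lowest were CALCB, a calcitonin gene-related peptide (-2.56, SE 0.19, limma adjusted p = 1.04e-10), NPY, neuropeptide Y (-1.81, SE 0.07, adjusted p = 7.88e-16), and PENK, proenkephalin (-1.67, SE 0.09, adjusted p = 4.85e-13). In the STAG2 KO fit 0 of 10 were past the threshold as higher and 5 as lower, given as a description. GRP, gastrin-releasing peptide, was at 211 CPM on average in proficient and 10.5 CPM in KO libraries, PENK at 39.5 and 1.79 CPM, and CALCB at 12.1 and 1.003 CPM. PRC2 KO clones gave rises: 6 of 20 tested rose and 0 fell in EZH2 KO, and 8 rose and 1 fell in SUZ12 KO. POMC, the precursor of corticotropin, had at most 1 count in controls and was at least 7.06-fold higher in EZH2 KO and at least 13.0-fold in SUZ12 KO (edgeR adjusted p = 0.00140 and 4.34e-04). PDYN, prodynorphin, rose by 4.72 (SE 0.80, edgeR adjusted p = 0.00244) and 5.09 (SE 0.80, adjusted p = 0.00119) on the log2 scale. BDNF, a neurotrophin, rose by 4.23 in EZH2 KO (SE 0.83, edgeR adjusted p = 0.00580), and GAL, galanin, by 5.04 in SUZ12 KO (SE 0.56, adjusted p = 1.72e-04), where ADM, adrenomedullin, fell by 2.26 (SE 0.67, adjusted p = 0.0337). In STAG1 KO 0 of 13 rose and 1 fell, NPW (-1.90, SE 0.23, edgeR adjusted p = 0.0239), and between the WT clone and the parental line NPY was higher (0.51, SE 0.09, adjusted p = 0.0213) and CCK, cholecystokinin, lower (-1.66, SE 0.23, adjusted p = 0.00755).

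Of 15 other processing enzymes, 2 of 14 tested rose and 0 fell in EZH2 KO, and 2 rose and 2 fell in SUZ12 KO, rises near the 12% and 14.7% of all genes. PCSK6, a convertase of the constitutive pathway, rose by 3.83 (SE 0.47, edgeR adjusted p = 4.60e-04) and 4.22 (SE 0.48, adjusted p = 1.98e-04), and FURIN, which cuts in the trans-Golgi, by 0.68 (SE 0.15, adjusted p = 0.0104) and 0.66 (SE 0.15, adjusted p = 0.00910). PAM, which amidates peptide ends, and CPD, a carboxypeptidase of the Golgi, fell in SUZ12 KO by 0.69 (SE 0.17, edgeR adjusted p = 0.0144) and 0.50 (SE 0.15, adjusted p = 0.0290). After siSTAG2 0 of 12 rose and 3 fell, among them the endothelin-converting enzyme ECE1 (-0.34, SE 0.08, limma adjusted p = 0.00295) and the cathepsin CTSB (-0.19, SE 0.06, adjusted p = 0.0334). In STAG1 KO 1 of 13 rose, PAM (0.60, SE 0.08, edgeR adjusted p = 0.0265), and 1 fell. In the STAG2 KO fit 1 of 13 was past the threshold as higher (PAM, 0.43) and 1 as lower (ECE1, -0.44), given as a description. Between the WT clone and the parental line edgeR called 0 of 13, with 4 at an unadjusted p under 0.05, beside 2320 of 14167 genes.

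The machinery that moves, docks and fuses granules was followed in 42 genes. In EZH2 KO 14 of 36 tested rose and 0 fell, where 12% of all genes rose and 3.69% fell. In SUZ12 KO 15 rose and 3 fell, where 14.7% of all genes rose and 5.87% fell. Median log2 changes were 0.95 and 1.21. RAB27B, a small GTPase that tethers granules at the plasma membrane, had at most 2 counts in controls and was at least 15.1-fold and 16.6-fold higher (edgeR adjusted p = 0.00155 and 9.78e-04). SYT4, a synaptotagmin of dense-core granules, rose by 5.49 (SE 0.60, edgeR adjusted p = 2.25e-04) and 4.69 (SE 0.59, adjusted p = 3.45e-04), and CPLX2, a complexin that clamps fusion, by 5.22 (SE 0.55, adjusted p = 1.81e-04) and 6.01 (SE 0.56, adjusted p = 5.96e-05). CADPS2, STX1A and ATP6AP1 fell in SUZ12 KO by 0.79 (SE 0.19, edgeR adjusted p = 0.0123), 0.78 (SE 0.19, adjusted p = 0.0123) and 0.61 (SE 0.17, adjusted p = 0.0270). After siSTAG2 4 of 26 rose and 7 fell, where 9.54% of all genes rose and 11% fell. The priming factor UNC13A rose by 1.24 (SE 0.34, limma adjusted p = 0.0108), RAB3A by 0.95 (SE 0.30, adjusted p = 0.0222) and the zinc transporter SLC30A3 by 0.52 (SE 0.10, adjusted p = 2.65e-04). CADPS2, which primes granules for release, fell by 1.14 (SE 0.08, limma adjusted p = 1.77e-11), the fusion protein SNAP25 by 1.01 (SE 0.25, adjusted p = 0.00482) and RAB3B by 0.87 (SE 0.08, adjusted p = 4.68e-09).

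In the STAG2 KO fit 3 of 31 of these machinery genes were past the threshold as higher and 6 as lower, given as a description. Of all genes, 6.67% rose and 5.76% fell in that fit. RAB3B was lower by 1.46 on the log2 scale and CPLX1 by 1.95. UNC13A was lower by 1.73 there, opposite in sign to its rise after siSTAG2. PTPRN2, a granule membrane protein, was higher by 2.89. PTPRN2 was also higher in STAG1 KO (2.83, SE 0.58, edgeR adjusted p = 0.0494) and in the WT clone against the parental line (3.16, SE 0.49, adjusted p = 0.0122), so that it differed between clone and parental line without any KO. STXBP5 was higher in STAG2 KO by 0.72 and in STAG1 KO by 1.03 (SE 0.15, edgeR adjusted p = 0.0271), where RAB3A fell by 1.52 (SE 0.30, adjusted p = 0.0471) and RAB3B by 0.99 (SE 0.19, adjusted p = 0.0460). In STAG1 KO 2 of 31 rose and 2 fell, where 2.77% of all genes rose and 2.50% fell. Between the WT clone and the parental line 4 of 32 were higher and 2 lower, among them SYT4 (1.72, SE 0.30, edgeR adjusted p = 0.0202), SYTL4 (1.40, SE 0.21, adjusted p = 0.0106) and CYB561 (-1.05, SE 0.20, adjusted p = 0.0267).

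Vesicle proteins related in place to SYP, and proteins that act with vesicles, made a list of 15 genes. In EZH2 KO 6 of 15 tested rose and 0 fell, where 12% of all genes rose and 3.69% fell. In SUZ12 KO 7 rose and 1 fell, where 14.7% of all genes rose and 5.87% fell. SYN2, a synapsin that clusters vesicles, rose by 3.79 (SE 0.52, edgeR adjusted p = 8.54e-04) and 4.13 (SE 0.52, adjusted p = 3.68e-04), and SV2B, a vesicle glycoprotein, by 3.49 (SE 0.47, adjusted p = 7.40e-04) and 3.92 (SE 0.48, adjusted p = 2.83e-04). SYPL2 had at most 1 count in controls and was at least 5.21-fold and 8.24-fold higher (edgeR adjusted p = 0.00925 and 0.00282), while SYNGR2 fell in SUZ12 KO by 0.77 (SE 0.17, adjusted p = 0.00872). Median log2 changes were 1.47 and 1.53, and 0.71 in EZH2 KO with the genes at or under the floor in controls set to their bounds. After siSTAG2 0 of 8 rose and 2 fell, SV2C (-1.81, SE 0.33, limma adjusted p = 2.08e-04) and SYNPR (-0.34, SE 0.11, adjusted p = 0.0241). In STAG2 KO libraries SV2C had at most 1 count and was at least 48.5-fold lower, and BSN was lower by 1.43, while SYNPR was higher by 0.91, opposite in sign to siSTAG2 (given as a description). STAG1 KO gave 0 higher and 1 lower of 12, SYNGR3 (-1.78, SE 0.34, edgeR adjusted p = 0.0434), and the WT clone 1 higher and 0 lower of 12, PCLO (1.13, SE 0.22, adjusted p = 0.0287).

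Regulators of such genes, 26 transcription factors and cofactors with the splicing factor SRRM4, were followed last. In EZH2 KO 7 of 19 rose and 0 fell, where 12% of all genes rose and 3.69% fell. In SUZ12 KO 8 rose and 1 fell, where 14.7% of all genes rose and 5.87% fell. SRRM4 had 0 counts in all 3 controls and was at least 2.35-fold higher in EZH2 KO and at least 3.53-fold in SUZ12 KO (edgeR adjusted p = 0.00368 and 0.00142), and GATA3 rose by 3.39 (SE 0.86, adjusted p = 0.0210) and 5.32 (SE 0.91, adjusted p = 0.00192). SOX11 fell in SUZ12 KO by 0.57 (SE 0.17, edgeR adjusted p = 0.0301) and rose after siSTAG2 by 0.60 (SE 0.06, limma adjusted p = 1.55e-08). After siSTAG2 3 of 15 rose and 1 fell, with ATF3 (0.57, SE 0.20, limma adjusted p = 0.0419) and POU3F2 (0.38, SE 0.13, adjusted p = 0.0331) among those that rose, and RCOR1, a corepressor that REST recruits, falling by 0.42 (SE 0.07, adjusted p = 3.38e-05). In the STAG2 KO fit 6 of 15 were past the threshold as higher and 1 as lower, given as a description: GATA3 by 2.57, GATA2 by 1.94 and POU3F2 by 1.58 were the highest, and RCOR1 was lower by 0.71. STAG1 KO gave 0 higher and 1 lower of 16, POU3F2 (-1.63, SE 0.21, edgeR adjusted p = 0.0252), and the WT clone 0 higher and 1 lower of 15, GATA3 (-1.43, SE 0.28, adjusted p = 0.0320).

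Between EZH2 KO and SUZ12 KO clones edgeR called 0 genes of any of these 5 lists. Genes with an unadjusted p under 0.05 numbered 2 of 14 processing enzymes, 5 of 36 machinery genes, 0 of 15 genes of the vesicle list, 1 of 20 peptide precursors and 2 of 19 regulators. Over all genes they numbered 629 of 15130. In the SK-N-MC pair, past 2-fold and without replicates, 11 of 37 machinery genes were higher without STAG2 and 4 lower, and 7 of 23 peptide precursors were higher and 6 lower. Of all genes in that pair, 10.2% were higher and 11.4% lower. In the A4573 pair 1 of 34 machinery genes was higher and 7 lower, and 3 of 16 peptide precursors were higher and 6 lower. Of all genes there, 7.76% were higher and 14.1% lower.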

How the data were processed

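RNA of A673, SK-N-MC and A4573 cells was sequenced from non-directional oligo-dT libraries. Per the labels and the study's methods, the authors aligned reads to hg38 (SAMtools 0.1.16; TopHat2 2.0.0 running on Bowtie 0.12.7) and deposited raw counts per gene symbol for the clones and the pairs. For the knockdown they deposited a normalized signal per Ensembl gene, in which 100% of the values above 0 came out as whole reads within a tolerance of 0.01. The size factors were not given in the sources used here.

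Counts were tested with edgeR 4.0.16 (quasi-likelihood, TMM scaling, filterByExpr) in R 4.3.3, and knockdown values with limma 3.58.1 (trend) on log2(value + 1) for genes with a mean of at least 10. Fold changes on that scale understate the change of low genes. Tests were two-sided with Benjamini-Hochberg adjustment over all genes tested, at 0.05. STAG2 KO and WT clone comparisons had the experiment as a term. EZH2 KO and SUZ12 KO came from 1 fit of all groups of experiment 2 and share controls with the STAG2 KO comparison. In the pairs, log2 ratios used a prior count of 2 and genes with at least 10 counts. Alternatives were DESeq2 1.42.0, its size factors, no filter, other controls, and leaving out each library. The code was tested on simulated data. The members and gene lists were chosen with earlier results of these data known. Named were the 10 members, the targeted genes, up to 3 called genes at each end of a list per comparison, and the 5 genes most like PCSK1. Coordinates are GENCODE 44 on GRCh38. A few genes that this rule names are not reported here.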

Additional observations from a re-analysis of the deposited data

Results flagged for a closer look

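Clone 5 of STAG2 KO in experiment 2 stood far from the other 4 STAG2 KO libraries in CPE, at 183 CPM against 32.3 to 62.4 CPM, and in SCG2, at 47.6 CPM against 14.7 to 20.5 CPM. Of 25 groups of 4 to 10 libraries looked at, these 2 exceeded the critical value of Dixon's test, and chance passes about 1 in 20 groups.

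CHGB and VGF had opposite directions in the isogenic pairs. The log2 ratio without over with STAG2 was -1.44 in SK-N-MC and 3.45 in A4573 for CHGB, and 0.66 in SK-N-MC and -1.46 in A4573 for VGF. With 1 library an arm, the difference between the lines was not tested.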

How the results depend on the processing

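Counts for STAG2 KO are a description, since that comparison chose PCSK1. With DESeq2, 2621 genes and 2 members were called in STAG2 KO, 22 genes between EZH2 KO and SUZ12 KO, 1943 genes and 1 member in STAG1 KO, and 631 genes between the WT clone and the parental line, against 1687 and 1, 1, 757 and 0, and 385 with edgeR. Without the filter on low counts, 2 members were called in STAG2 KO, 5 genes between EZH2 KO and SUZ12 KO, and 741 genes and 1 member between the WT clone and the parental line. Experiment 1 alone gave 3663 genes and 3 members in STAG2 KO and experiment 2 alone 494 genes. With the WT clone as the only control, EZH2 KO had 1441 genes and 1 member, against 2377 and 4. With only the groups compared, 0 genes passed between EZH2 KO and SUZ12 KO. The WT clone comparison had 5 genes with no experiment term and 185 when both WT clone libraries of experiment 1 were added up. The causes were not tested.

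In STAG2 KO the sign of CPE turned in experiment 1 alone (-1.01) and with the WT clone as the only control (-0.0057), and that of VGF in experiment 2 alone (0.35) and when those 2 libraries of experiment 1 were added up (0.11).

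Leaving out each library gave 1053 to 4048 genes and 1 to 3 members in STAG2 KO (highest, for both, without clone 5 of experiment 2), 1169 to 1760 and 1 to 3 in EZH2 KO, 1874 to 3238 and 3 to 5 in SUZ12 KO, 1 to 2 genes between these, 0 to 1310 genes in STAG1 KO (lowest without the parental library), and 98 to 953 genes and 0 to 1 members in the WT clone comparison. Log2 changes whose sign turned ran, in STAG2 KO, from -0.55 to 0.65 for CPE, -0.24 to 0.13 for VGF and -1.03 to 0.10 for CHGA. In STAG1 KO they ran from -1.18 to 0.71 for CHGA, -0.68 to 0.41 for PCSK1 and -0.50 to 0.022 for SYP. PCSK1 ran from -0.15 to 0.74 in SUZ12 KO, CHGB from -0.41 to 0.45 and VGF from -0.84 to 0.63 between EZH2 KO and SUZ12 KO, and CHGA from -0.30 to 0.73 in the WT clone comparison.

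With the replicate number of the knockdown as a block, 2881 genes and 4 members were called, against 2476 and 4. Deviations of same-numbered libraries correlated at 0.026, 0.037 and 0.004, highest with their own number in 3 of 3. The correlations were weak, while their order went with pairing. Whether the numbers pair the libraries was thus not settled, and the main fit had no block.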
